A study of Mus musculus with 8 samples.

Results

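Fibroblast growth factor (FGF) signalling through ERK was followed over 10 genes of the pathway in 8 polyA RNA libraries from induced pluripotent stem cells (iPSCs) of the mouse. The genes were chosen by name: the ligands Fgf4 and Fgf8, the receptor Fgfr1, the phosphatases Dusp6 and Dusp4, the ETS transcription factors Etv4 and Etv5, and the inhibitors Spry2, Spry4 and Spred1. All 10 were found among the 23284 gene symbols of the deposited table. Wild-type iPSCs, labelled ColA1_miR203 (+/+) and Rosa26rtTA (+/+), received siRNA and were collected 1 week later: a control (siControl), one to Dnmt3a (siDnmt3a), one to Dnmt3b (siDnmt3b) or the latter 2 jointly (the double siRNA), with 1 library each. Both targets are de novo DNA methyltransferases. The second line, labelled ColA1_miR203 (KI/KI) and Rosa26rtTA (KI/KI), carried miR-203 as a knock-in that doxycycline (dox) induces. In the dox group, clones 1 and 2 had 5 days of dox and then 2 weeks without it (n = 2), and the vehicle group holds clones of the same numbers (n = 2). The free-text description of the vehicle libraries also speaks of dox, and their titles and treatment field, which say otherwise, were followed. Both lines were reprogrammed from embryonic fibroblasts and grown over feeder cells, and the growth text of the labels names no inhibitor of FGF receptors or of MEK. Expression is given in FPKM, fragments per kilobase of transcript scaled to the fragments mapped in the library, so that levels of different genes can be compared.

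An FGF ligand binds its receptor at the cell surface, and the receptor activates Ras, Raf, MEK and the kinase ERK in turn. Active ERK switches on genes such as Etv4, Etv5, Dusp6, Spry2 and Spry4, several of which encode inhibitors of the same pathway, so their RNA is widely used as a readout of it. In mouse pluripotent cells Fgf4 is made by the cells themselves under the control of Oct4 and Sox2, and ERK activity favours the exit from the naive state, the state of the preimplantation epiblast.

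All 8 libraries held the 14 pluripotency markers at 1 FPKM or more, with a summed level between 3015 and 4844 FPKM. Markers of feeder fibroblasts, 14 of 14 measured and none at 0 in any library, summed to between 88.1 and 166 FPKM in the wild-type libraries, to 318 and 391 in vehicle, and to 1526 and 1578 in dox. The sum of FPKM was highest in the double siRNA library (586657, against 486917 to 526330 in the others). The row for Mir203 was listed at 0 in dox clone 1 and at 15.3 FPKM in dox clone 2, and at 0 and 17.7 in vehicle clones 1 and 2. A polyA library does not capture the mature microRNA, so this row does not check the induction.

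The mature miR-203-3p sequence is shown because dox induces this microRNA, with its seed (bases 2 to 8) in capitals, from RefSeq (GRCm38.p6):
miR-203-3p: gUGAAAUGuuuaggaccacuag
The 7 letters that pair with the seed, CATTTCA on the transcript strand, were looked for in the longest annotated 3' UTR of each gene (GENCODE M21, GRCm38). None of the 10 genes held them, in 3' UTRs of 192 bases (Fgf8) to 4330 bases (Spred1), where 16.7% of 10598 expressed genes did. Absence of these letters says nothing on sites of other kinds.

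The 250 bases before the RefSeq start site are printed for Fgf4 and Dusp6, which among the 9 genes tested between the lines had the largest differences above and below wild type on the log2(FPKM + 1) scale, as 5′ to 3′ sequence of the gene's strand. Capitals mark CpG dinucleotides, the substrate of the enzymes targeted by the siRNAs. In GENCODE the Fgf4 gene starts further upstream, at 144847367, so the window before its RefSeq start site lies inside that gene. The Fgf4 stretch is chr7:144861136-144861385 and the Dusp6 stretch chr10:99262981-99263230 (GRCm38.p6, both plus strand):
Fgf4: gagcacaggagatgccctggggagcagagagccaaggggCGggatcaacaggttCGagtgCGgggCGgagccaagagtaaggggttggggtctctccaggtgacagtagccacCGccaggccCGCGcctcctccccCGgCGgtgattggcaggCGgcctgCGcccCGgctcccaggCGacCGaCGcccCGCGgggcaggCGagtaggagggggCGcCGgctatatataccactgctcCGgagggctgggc
Dusp6: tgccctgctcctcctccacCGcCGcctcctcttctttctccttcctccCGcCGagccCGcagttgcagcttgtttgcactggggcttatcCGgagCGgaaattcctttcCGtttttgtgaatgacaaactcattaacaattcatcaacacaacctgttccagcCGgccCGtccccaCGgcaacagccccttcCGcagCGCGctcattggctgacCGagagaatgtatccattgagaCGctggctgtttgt
Fgf4 has 21 CpG dinucleotides in this window and Dusp6 has 16, beside a median of 16 over promoters of expressed genes. Etv5, Spry2 and Spred1 were also matched in the table of promoters, with 27 and 18 (for 2 start sites of Etv5), 23 and 31. As a ratio to the count expected from C and G content, Fgf4 was at 0.675 and Dusp6 at 0.864 (median 0.725). By the same ratio Etv5 was at 0.897 and 0.78, Spry2 at 0.947 and Spred1 at 1.001. Fgf8, Fgfr1, Dusp4, Etv4 and Spry4 were not matched. The motifs CCGGAAG (ETS factors), TGANTCA (AP-1) and TGACGTCA (CREB family) were searched on both strands of these windows. None of them was found in the 5 matched genes, where 13.7%, 4.34% and 2.64% of 10994 promoters of expressed genes held them. Absence of these letters says nothing on looser matches or on sites outside the windows.

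**Figure D1:**
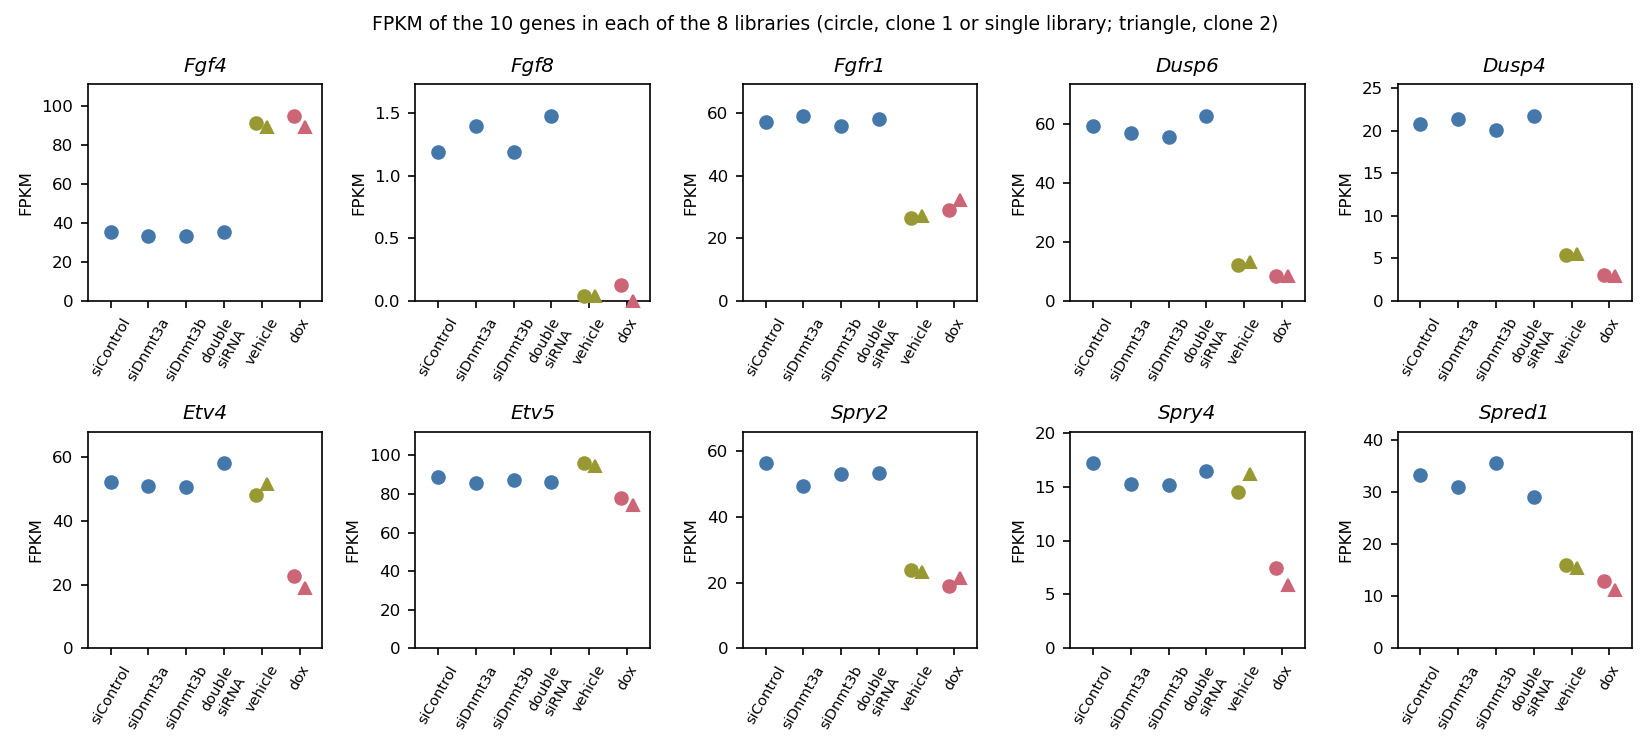
Expression of the 10 genes (FPKM, linear axis from 0) in each of the 8 libraries; blue points are wild-type iPSCs with 1 library per siRNA, olive points vehicle and red points dox knock-in clones. Fgf4 sits at 33.1 to 35.3 FPKM in wild type and 89.3 to 94.8 in the knock-in line, and Dusp6 at 55.9 to 62.9 and 8.40 to 13.3.

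The first comparison asks what differs in knock-in iPSCs 2 weeks after a transient miR-203 pulse. Mean FPKM of Etv4 and Spry4 in dox fell by 58.2% and 56.4% of vehicle, that of Dusp4 and Dusp6 fell by 44.6% and 34.1%, and that of Spred1 and Etv5 fell by 23.1% and 20.1%. The ligand Fgf4 and the receptor Fgfr1 did not pass the test. Of the 10 genes, 9 had a mean of 1 FPKM or more and were tested. Of these 9, 6 fell and none rose, where 14.8% of all 11927 genes tested fell and 17.1% rose (limma, adjusted p under 0.05). Their median difference was -0.36 on the log2(FPKM + 1) scale, beside -0.01 over all genes.

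Fgf4, which lies on chromosome 7 from 144847367 to 144865243 (plus strand), encodes the main FGF ligand of naive cells. It was at 91.2 and 89.4 FPKM in vehicle clones 1 and 2 and at 94.8 and 89.3 in dox. The groups overlapped, and the difference was 0.03 (log2, SE 0.0713, limma adjusted p = 0.791). Fgf8 (chromosome 19, 45736798 to 45742915, minus strand) encodes a ligand of the primitive streak. It was at 0.0428 and 0.0444 FPKM in vehicle and at 0.128 and 0 in dox, too low to be tested.

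Fgfr1 (chromosome 8, 25513654 to 25575718, plus strand) encodes the receptor through which Fgf4 acts in these cells. It was at 26.5 and 27.2 FPKM in vehicle and at 29.2 and 32.4 in dox, so both dox values lay above both vehicle values. With 2 libraries a group, such a separation says little by itself, here and for the genes below. The share of all genes that had it was not counted. The difference of 0.19 (log2, SE 0.0843) did not pass (limma adjusted p = 0.125), whereas blocking on the clone brought it past the threshold (adjusted p = 0.0353). Fibroblasts also express Fgfr1, and all 14 fibroblast markers rose in dox (median 1.74 log2). Their part in this value was not tested. In such bulk samples a change in the number of cells of a type and a change in RNA per cell cannot be told apart.

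Etv4 (chromosome 11, 101769742 to 101785371, minus strand) and Etv5 (chromosome 16, 22381309 to 22439719, minus strand) encode related ETS factors that ERK induces. Etv4 was at 48.0 and 51.6 FPKM in vehicle and at 22.7 and 19.01 in dox. The groups were far apart, and Etv4 fell by 1.22 (log2, SE 0.104, limma adjusted p = 7.70e-04), the largest fall of the 9 genes tested. Etv5 was the most abundant of the 10 genes in vehicle, at 95.9 and 94.6 FPKM, and stood at 77.8 and 74.3 in dox. It fell by 0.32 (SE 0.0696, limma adjusted p = 0.0181). That call was lost without vehicle clone 1, vehicle clone 2 or dox clone 2 (adjusted p = 0.1, 0.0663 and 0.0666).

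Dusp6 (chromosome 10, 99263231 to 99267489, plus strand) encodes a cytoplasmic phosphatase that inactivates ERK, and Dusp4 (chromosome 8, 34807297 to 34819894, plus strand) a nuclear one. Dusp6 was at 12.4 and 13.3 FPKM in vehicle and at 8.53 and 8.40 in dox, and fell by 0.55 (log2, SE 0.0869, limma adjusted p = 0.00648). Dusp4 was at 5.42 and 5.53 FPKM in vehicle and at 3.11 and 2.96 in dox, and fell by 0.68 (SE 0.0972, limma adjusted p = 0.00450). Both genes were thus lower in each dox library than in either vehicle library, and the clones of a group differed from each other by no more than 0.09 on the log2 scale.

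Spry2 (chromosome 14, 105891947 to 105896819, minus strand), Spry4 (chromosome 18, 38586247 to 38601415, minus strand) and Spred1 (chromosome 2, 117121374 to 117182279, plus strand) encode membrane-bound inhibitors that act between the receptor and Raf. Spry4 was at 14.5 and 16.2 FPKM in vehicle and at 7.46 and 5.92 in dox, and fell by 1.09 (log2, SE 0.123, limma adjusted p = 0.00199). Spred1 was at 15.9 and 15.5 FPKM in vehicle and at 13.0 and 11.2 in dox, and fell by 0.36 (SE 0.0986, limma adjusted p = 0.0362). The groups of both genes did not overlap, which says little by itself with 2 libraries a group. The Spred1 call was lost at adjusted p = 0.147 without vehicle clone 1, 0.0916 without vehicle clone 2 and 0.15 without dox clone 2. It was also lost without a filter on low genes (0.0793) and with median-of-ratios scaling (0.0544). Spry2 was at 23.8 and 23.1 FPKM in vehicle and at 18.9 and 21.3 in dox. Its difference of -0.22 (SE 0.0895) did not pass (limma adjusted p = 0.108). It did pass when the clone was a block (adjusted p = 0.0344) and with libraries scaled to the pluripotency markers (adjusted p = 0.0445).

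Within clone 1, dox lay below vehicle by 1.05 for Etv4 and 0.87 for Spry4 (log2), and within clone 2 by 1.40 and 1.31. Only these genes of the 10 fell by 2-fold or more at the threshold, where 0.964% of all genes tested did. In every alternative analysis of this comparison that tested them (Dusp4 is under a minimum of 5 FPKM), Etv4, Spry4, Dusp6 and Dusp4 stayed lower at the threshold. Etv4 then differed by -1.37 to -1.10 and Spry4 by -1.24 to -0.95.

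**Figure D2:**
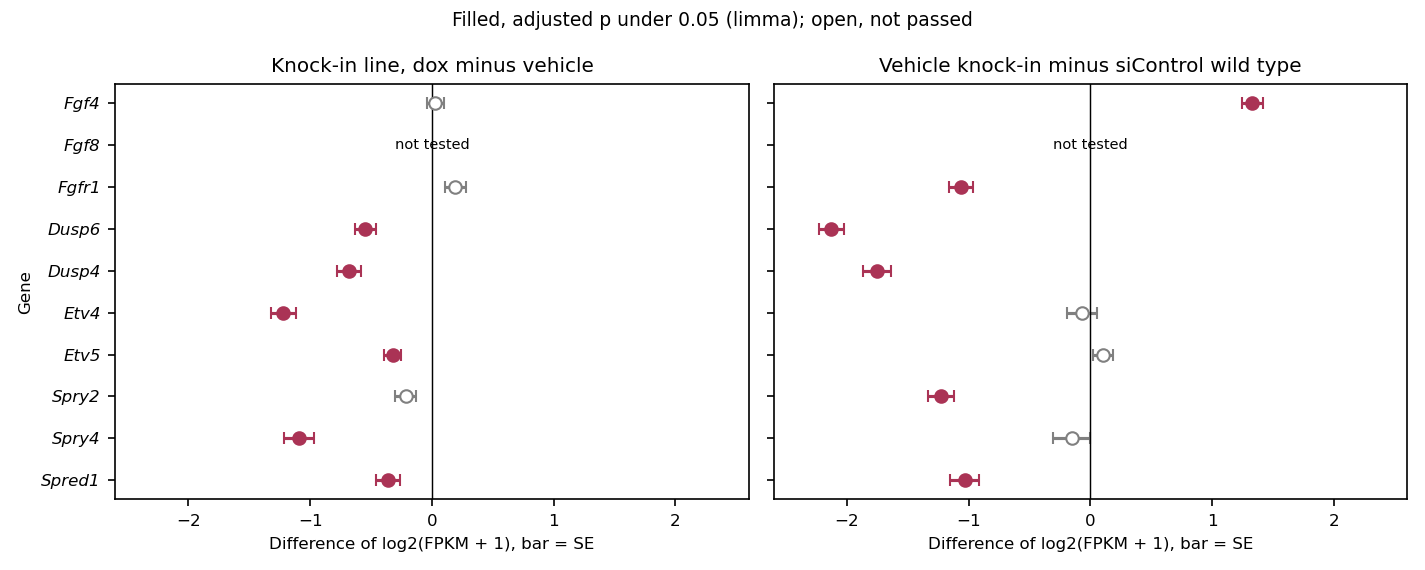
Difference of log2(FPKM + 1) with its standard error for each gene, dox minus vehicle on the left and vehicle knock-in minus siControl wild type on the right. Etv4 and Spry4 have the largest falls in dox (-1.22 and -1.09), Dusp6 the largest difference between lines (-2.13), and Fgf4 alone passed as higher in the knock-in line (1.33).

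The rest of the pathway was described by 6 lists with 66 entries, of which 43 genes were tested for dox. Of these, 9 rose, 2 fell and 32 did not pass, where 17.1% of all 11927 genes tested rose and 14.8% fell. Of 16 other ligands 3 passed the filter on low values, and these 3 rose. Fgf7, a ligand that mesenchymal cells make for epithelia, was at 1.99 ± 0.0988 FPKM in vehicle and 9.20 ± 0.741 in dox (mean ± SD, n = 2 each; 1.77 log2, limma adjusted p = 2.46e-04). Fgf10, also a mesenchymal ligand, rose by 0.58, and Fgf17, a relative of Fgf8, by 0.89 (limma adjusted p = 0.0109 and 0.0183). Fibroblast markers were led by Dcn (2.98), Col3a1 (2.44), Col1a2 (2.37), Col1a1 (2.21), Lum (1.99) and Col5a1 (1.89), and their part in these rises was not tested.

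Among the receptors, Fgfrl1, which encodes an FGF receptor without a kinase domain, differed by 0.37 and did not pass (limma adjusted p = 0.0703). None of the 8 adaptors that link receptors to Ras passed, with Sos2, an exchange factor for Ras, at 0.29, Shc1 at 0.27, Frs3 at 0.25 and Gab1 at -0.20. Among 10 tested genes of the Ras to ERK cascade, Mapk3, which encodes ERK1, rose from 33.4 ± 2.44 to 45.6 ± 0.0591 FPKM (0.44, limma adjusted p = 0.0112). Nras, which encodes a Ras protein, differed by -0.21 and did not pass.

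Of 12 tested other feedback targets, 1 rose, 1 fell and 10 did not pass (median 0.03). Etv1, the third gene of the ETS group that holds Etv4 and Etv5, was at 8.44 and 9.14 FPKM in vehicle and at 3.25 and 2.75 in dox, and fell by 1.29 (log2, limma adjusted p = 7.63e-04). Spred3 rose by 0.42 (adjusted p = 0.0281, limma). Dusp9 and Dusp5, phosphatases of ERK, differed by 0.41 and -0.30 and did not pass. Of 9 tested immediate early genes, which ERK and other signals induce within minutes, 4 rose and 5 did not pass (median 0.50). Ier3, an early stress and growth factor response gene, rose from 25.0 ± 2.28 to 58.9 ± 4.42 FPKM (1.20), Dusp1, a nuclear phosphatase of several MAP kinases, by 0.82, Fos by 0.59 and Fosl1 by 0.50, while Phlda1 differed by 0.57 and did not pass.

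Naive and primed markers were measured beside them. Of 14 pluripotency markers, Dppa5a, Klf4, Tbx3, Tfcp2l1 and Esrrb rose, by 0.83, 0.79, 0.63, 0.60 and 0.25, Utf1 and Nr0b1 fell by 0.48 and 0.38, and 7 did not pass. Of 8 primed markers, 6 were high enough to be tested and 4 of these fell, led by Pou3f1 (-1.62), Dnmt3b (-1.50) and Lef1 (-1.12), with Otx2 at -0.50, and Cdh2, an adhesion gene that fibroblasts express, rose by 0.36. Macrophage markers summed to 135 and 158 FPKM in vehicle and 173 and 238 in dox, with 1 of 5 (Itgam, 0.57) passing the test. Of the primitive endoderm markers, Dab2 and Pdgfra rose by 1.18 and 1.12, Gata4 did not pass (0.16), and 4 of 7 were too low to be tested. The part of these cells in the values above was not tested.

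**Figure D3:**
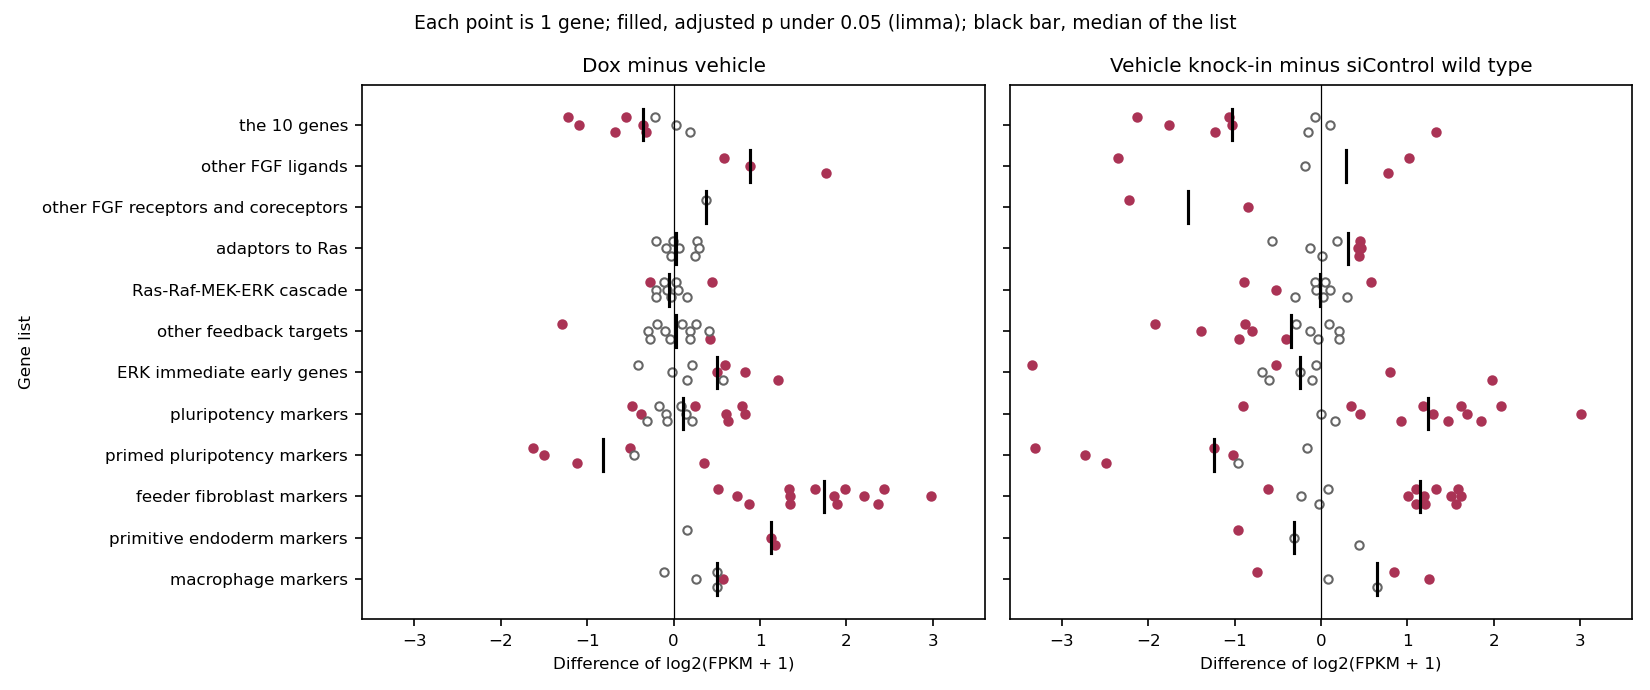
Difference of log2(FPKM + 1) for every tested gene of each list, dox minus vehicle on the left and vehicle knock-in minus siControl wild type on the right; filled points passed the test and black bars are list medians. The 10 genes have medians of -0.36 and -1.03, and the fibroblast markers 1.74 and 1.15.

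The second comparison set the vehicle knock-in clones beside the siControl wild-type library, to show how the lines differed. The ligand gene Fgf4 was higher, and the receptor gene and 4 feedback genes were lower. Mean FPKM of Fgf4 was 2.56-fold higher in the knock-in line, while Dusp6 was at 0.216 of siControl, Dusp4 at 0.263, Spry2 at 0.417, Fgfr1 at 0.469 and Spred1 at 0.473. Etv4, Etv5 and Spry4 did not pass. Of the 9 genes tested, 1 was higher and 5 were lower, all 6 by 2-fold or more, where 25.2% of 12036 genes were higher and 19.5% lower at the threshold, and 7.91% and 4.79% were so by 2-fold or more. Line, genotype and transfection cannot be told apart here. SiControl is 1 library, taken to vary as the knock-in clones do.

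Fgf4 was at 35.3, 33.1, 33.6 and 35.2 FPKM in siControl, siDnmt3a, siDnmt3b and the double siRNA, and every knock-in library was at 89.3 FPKM or more. The vehicle minus siControl difference was 1.33 (log2, SE 0.0858, limma adjusted p = 1.30e-04). Fgf8 was at 1.19, 1.40, 1.19 and 1.47 FPKM in the same wild-type libraries and at 0.128 or less in the knock-in line, below the level needed for a test. The receptor gene Fgfr1 was at 57.2, 59.1, 55.8 and 58.1 FPKM in wild type, and its difference was -1.06 (SE 0.101, limma adjusted p = 5.33e-04). For these ligands and the receptor the lines did not overlap.

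Dusp6 was at 59.5, 57.1, 55.9 and 62.9 FPKM in the 4 wild-type libraries, against at most 13.3 in the knock-in line. It had the largest difference of the 9 genes (-2.13 log2, SE 0.101, limma adjusted p = 4.92e-05). Dusp4 was at 20.8, 21.4, 20.1 and 21.7 FPKM in wild type, against at most 5.53 (-1.75, SE 0.113, limma adjusted p = 1.29e-04). The order of levels for both phosphatase genes was wild type, then vehicle, then dox, with no overlap between any of the 3. Spry2 and Spred1 had the same order, which makes 4 of the 9 genes with a mean of 1 FPKM or more, where 12.7% of 12042 genes had it; the vehicle and dox values that set it are those of the dox comparison. The wild-type libraries spanned 12.6% of the lowest value for Dusp6 and 8.12% for Dusp4.

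Spry2 was at 56.3, 49.4, 53.1 and 53.3 FPKM in wild type and differed by -1.23 (SE 0.107, limma adjusted p = 3.91e-04). Spred1 was at 33.2, 30.9, 35.6 and 29.1 FPKM and differed by -1.03 (SE 0.119, limma adjusted p = 0.00112). Both were higher in every wild-type library than in any knock-in library. For Spry2 the dox values lay below the vehicle values without passing the test.

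Etv4 was at 52.4, 51.1, 50.8 and 58.2 FPKM in wild type, which overlapped with vehicle (-0.07, SE 0.126, limma adjusted p = 0.673). Etv5 was at 88.6, 85.6, 86.9 and 86.2 FPKM (0.10, SE 0.0826, limma adjusted p = 0.344). Spry4 was at 17.2, 15.2, 15.1 and 16.5 FPKM (-0.15, SE 0.151, limma adjusted p = 0.441), and overlapped with vehicle as well. With libraries scaled to the pluripotency markers, which were themselves higher in the knock-in line, these 3 genes passed as lower in vehicle (-1.18 for Etv4, -1.01 for Etv5 and -1.23 for Spry4), and Fgf4 was higher by 0.23. In these 3 genes the dox libraries alone stood below the other 6. The vehicle libraries enter both comparisons. Etv4 and Spry4 differed by -1.22 and -1.09 for dox and by -0.07 and -0.15 between the lines, and Dusp6 and Spry2 by -0.55 and -0.22 for dox and by -2.13 and -1.23 between the lines.

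All 4 knock-in libraries lay above all 4 wild-type libraries for Fgf4 and below them for Fgfr1, Dusp6, Dusp4, Spry2 and Spred1, which makes 6 of the 9 genes with a mean of 1 FPKM or more. That happened at 60.7% of 12042 genes (30.5% above and 30.2% below), so the absence of overlap says nothing particular of these genes. Of 45 other pathway genes tested between the lines, 9 were higher, 13 were lower and 23 did not pass. Over all 12036 genes tested, 25.2% were higher and 19.5% lower. Other feedback targets were lower at 6 of 12 and higher at none (median -0.35), with Dusp9 at -1.93, Spred3 at -0.95 and Dusp5 at -0.88, while Etv1 did not pass (-0.03). Mapk3 had 62.4 FPKM in siControl against 31.6 and 35.1 in vehicle (-0.89), and 4 of the 8 adaptors were higher, among them Frs3 at 0.45 and Gab1 at 0.44. Of the pluripotency markers 11 of 14 were higher in vehicle and Utf1 was lower (median 1.24), and of the primed markers 5 of 7 were lower and none higher (median -1.24). The fibroblast markers had a median of 1.15, with 10 of 14 higher and Lum lower, and their part in the differences between the lines was not tested.

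Dusp6, Dusp4 and Spred1 had the widest range over the 8 libraries (2.77, 2.52 and 1.59 log2). Among 10988 genes, those nearest to Dusp6 in centred log2(FPKM + 1) profile were Aard and Tcfl5, at root mean square differences of 0.0698 and 0.0794 over the 8 libraries. Nearest to Dusp4 were Mt3 and Chd7 (0.0759 and 0.118), and nearest to Spred1 was Ston2 (0.0779). Aard, for example, was at 10.7 to 12.8 FPKM in the wild-type libraries, 2.05 and 2.02 in vehicle, and 1.02 and 1.14 in dox.

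The third comparison set wild-type cells given siRNA to Dnmt3a, Dnmt3b or both beside siControl. At collection the targets were still near the control level in RNA: Dnmt3a was at 59.8 FPKM in siDnmt3a and 69.5 in the double siRNA, against 75.1 in siControl, and Dnmt3b at 128.3 in siDnmt3b and 135.0 in the double siRNA, against 146.3. The values below therefore describe these libraries, not cells without either enzyme. None of the 10 genes differed from siControl by 2-fold in any siRNA library, where 0.153%, 0.111% and 0.239% of all genes did so in siDnmt3a, siDnmt3b and the double siRNA. With 1 library per group these differences have no replicate check, and all share the siControl library. They ranged from -0.18 (Spry2) to 0.13 (Fgf8) for siDnmt3a, from -0.17 (Spry4) to 0.10 (Spred1) for siDnmt3b, and from -0.18 (Spred1) to 0.18 (Fgf8) for the double siRNA. The medians of the 10 genes were -0.05, -0.05 and 0.01, beside -0.00, -0.00 and 0.01 over all genes.

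**Figure D4:**
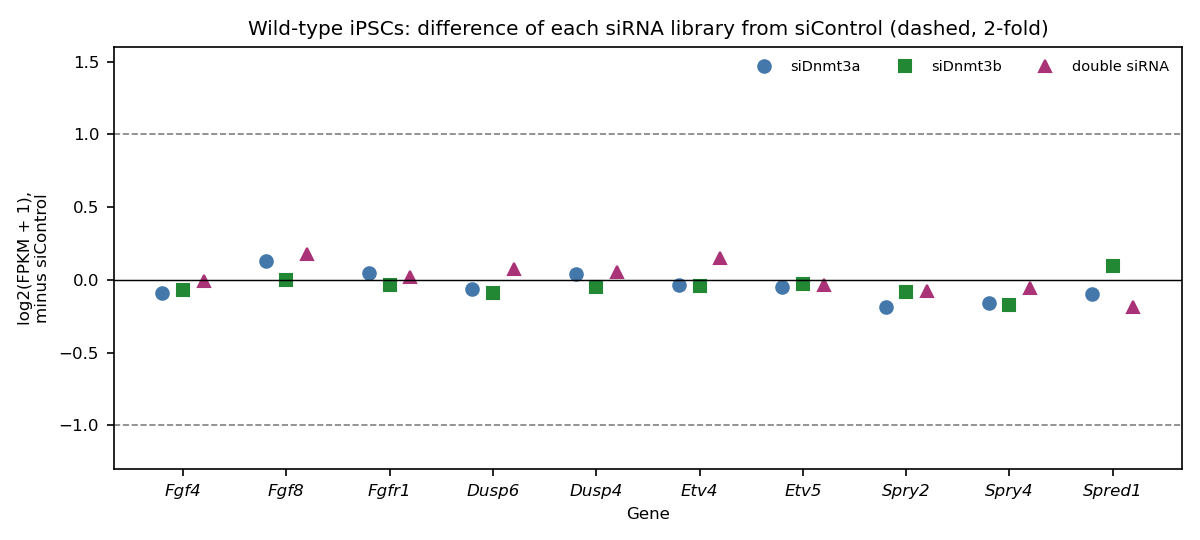
Difference of log2(FPKM + 1) from siControl for each gene in the 3 siRNA libraries of wild-type iPSCs, 1 library each, with dashed lines at 2-fold. All 30 points lie between -0.18 and 0.18.

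Etv4, which fell by 1.22 in dox, was at -0.04, -0.04 and 0.15 in siDnmt3a, siDnmt3b and the double siRNA. Spry4 was at -0.16, -0.17 and -0.06, and Spred1 at -0.10, 0.10 and -0.18. Dusp6 was at -0.06, -0.09 and 0.08, and Dusp4 at 0.04, -0.05 and 0.06. Across 11620 genes, which are not independent replicates, the differences of the double siRNA library had a Spearman's rho of 0.481 with GC content and -0.493 with length. Set against the 200 genes nearest in both, Spred1 moved from -0.18 to 0.10, Fgf8 from 0.18 to -0.09 and Dusp4 from 0.06 to -0.05 in that library, which turned the sign of each.

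The 4 wild-type libraries also form a factorial design, with 2 libraries with and 2 without each siRNA, in which the departure from additive effects gives the only estimate of error. None of the 10 genes passed for the siDnmt3a term, also at an unadjusted p under 0.05 (0 of 10), where 2.09% of 11716 genes passed and 1508 had such a p. The same held for the siDnmt3b term (0 of 10 by both counts), where 0.452% passed and 584 had such a p (limma). The siDnmt3a term was largest in size for Spred1 (-0.19, SE 0.0991, limma adjusted p = 0.408) and Fgf8 (0.16, SE 0.135, limma adjusted p = 0.706), and lay between -0.09 and 0.08 for the other 8 genes. The siDnmt3b term lay between -0.03 (Spry4) and 0.07 (Etv4). The fibroblast markers were lower than in siControl in each siRNA library (medians -0.59, -0.68 and -0.76), and their part in these values was not tested.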

How the data were processed

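RNA was measured in 8 libraries made with a strand-specific polyA kit, per the labels' protocols. The authors deposited FPKM for every gene and library. Tools that the submitters' processing notes list are TopHat2 2.0.10 with Bowtie 1.0.0, Cufflinks 2.2.1, Cuffnorm, SAMtools 0.1.19 and FastQC, with GRCm38 and mm10 as builds. Library scaling, annotation release and strand setting: not given in the sources used here. Fragment numbers per library were not used here, so there are no counting intervals. Steps of the low values put the libraries at 92.3% to 99.7% of the siControl depth, a rough estimate (12.8% to 17.8% of low genes lay at the most common ratio).

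Log2(FPKM + 1) was fitted with limma 3.58.1 in R 4.3.3 (eBayes with a trend, two-sided, Benjamini-Hochberg over all genes with a mean of 1 FPKM or more, threshold 0.05). Dox was compared with vehicle over their 4 libraries, vehicle with siControl over 5, and the siRNA terms additively over the 4 wild-type libraries. Differences on this scale understate those of low genes. The fits were also run on simulated data with known changes and independent noise, sized from the dox and vehicle libraries. That run cannot check the spread assumed for siControl or for the other wild-type libraries. P-values measure only the spread between these libraries. Clone numbers did not enter the main dox fit, which was unpaired. They paired dox with vehicle in the differences within a clone and in the alternative with the clone as a block. This pairing was assumed, since the titles number clones 1 and 2 in both groups without stating that equal numbers are 1 clone. Clone 1 minus clone 2 in dox had a Pearson r of 0.441 with the same difference in vehicle, across 11927 genes, which are not independent replicates. Alternatives were another pseudocount (0.1), filters, scalings, the clone as a block, other sets of libraries, each clone left out, and a correction for GC content and length, known for 99.1% of expressed genes (GENCODE M21). The 10 genes and all lists were chosen with earlier results of these data known. Beside the 10 genes, each list has up to 4 named genes with the largest dox difference, up to 6 where they passed, and the 3 genes of widest range have the 2 nearest in profile. Esrrb, outside this rule, is named to complete a count, after its values were seen. Hras and Adgre1 were not matched in the table, and Fgf5 stood on 2 lists. Some genes that the naming rule picks are not reported here.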

Additional observations from a re-analysis of the deposited data

How the results depend on the processing

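For dox, 2035 genes rose and 1767 fell. With a minimum of 5 FPKM 1289 rose, without a filter 947 fell, and with the replicate block 3190 fell and 1 of the 10 genes rose (Fgfr1). The block changed the call of no other of the 10 genes than Fgfr1 and Spry2. Leaving out 1 clone gave 1100 (without vehicle clone 1) to 2064 genes that rose and 538 (without vehicle clone 1) to 1993 that fell, with 1316 rising and 940 falling without dox clone 2 and 1057 falling without vehicle clone 2. Scaling to the pluripotency markers, chosen after seeing the data, moved the median of all genes by -0.136 (log2), with 1175 genes rising and 3305 falling, and median-of-ratios scaling put 63.8% of calls higher, against 53.5%. Between the lines, where 3037 genes were higher and 2345 lower, scaling to those markers, themselves higher there, moved the median by -1.04 and gave 682 and 9934, with 8 of the 10 genes lower. Etv5 then turned to -1.01 (limma adjusted p = 6.04e-05), Etv4 and Spry4 passed at -1.18 and -1.23 (0.000144 and 0.00032), and Fgf4 remained higher at 0.23 (0.0437). With all 4 wild-type libraries as 1 group, 3873 genes were lower. The 2-fold counts for siDnmt3a were 8 higher and 10 lower: 13 and 32 with a pseudocount of 0.1, 3 and 4 with a minimum of 5 FPKM, 5 higher with the GC and length correction, and 16 lower without a filter. For siDnmt3b they were 6 and 7: 10 and 21, then 1 and 4, and 12 lower without a filter. For the double siRNA they were 12 and 16: 22 and 48, then 5 and 10, and 4 higher with the correction. The siDnmt3a term had 90 genes higher and 155 lower: 47 and 58 with a pseudocount of 0.1, 0 and 0 without a filter (limma), 10 and 13 with median-of-ratios scaling, and 1 and 3 with all 8 libraries fitted. The siDnmt3b term had 22 and 31: 11 and 18, 0 and 0, 2 and 4, and 0 and 0 in the same order, and 10 and 16 with a minimum of 5 FPKM. None of the 10 genes passed for either term in any of these. The cause of these changes was not tested. With 2 clones or 1 library a group, small differences are not detectable.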

Other observations

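Some pathway genes outside the rule for naming genes, chosen after their values were seen; their differences between the lines follow. Egr1, an immediate early transcription factor that ERK induces, was at 13.8, 10.4, 10.8 and 13.6 FPKM in siControl, siDnmt3a, siDnmt3b and the double siRNA, at 0.407 and 0.510 in vehicle and at 0.701 and 1.08 in dox (vehicle minus siControl -3.34 log2, limma adjusted p = 5.81e-05). Fgf15, a ligand of the Fgf19 group, was at 4.67 to 5.58 FPKM in wild type and at 0.0715 to 0.191 in the knock-in line (-2.35). Of 4 other ligands tested between the lines, Fgf15 among them, 2 were higher and 1 was lower. Fgf7 had 0.480 FPKM in siControl against 1.92 and 2.06 in vehicle, and Fgf10 had 0.634 against 1.70 and 1.89. Fgfr2, which encodes the receptor of primitive endoderm and trophoblast, was at 5.53 to 6.08 FPKM in wild type and at 0.355 to 1.02 in the knock-in line (-2.23). Il17rd, which encodes a membrane inhibitor of FGF signalling, had 23.6 FPKM in siControl against 8.61 and 8.18 in vehicle (-1.39). Ier3, another immediate early gene, went the other way, from 5.58 FPKM in siControl to 23.4 and 26.6 in vehicle (1.98), and to 55.8 and 62.1 in dox.

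Naive and primed markers differed between the same libraries. The naive factor Tfcp2l1 was at 6.30 to 7.98 FPKM in wild type, 72.2 and 70.2 in vehicle and 110.0 and 107 in dox. Klf4, another naive factor, was at 18.9 to 20.4 FPKM in wild type, 59.3 and 71.3 in vehicle and 110.3 and 116 in dox. Pou3f1, a factor of the primed state, was at 33.1 to 38.2 FPKM in wild type, 4.17 and 4.15 in vehicle and 0.730 and 0.620 in dox. These genes were chosen after their values were seen, and others of the same lists did not keep such an order. Zfp42 was at 144 to 159 FPKM in wild type, 402 and 370 in vehicle and 341 and 286 in dox. Nr0b1 was at 28.0 to 38.2, then 70.6 and 69.9, then 54.0 and 53.5. The primed marker Cdh2 was at 13.2 to 15.7, then 7.44 and 7.04, then 10.2 and 8.96.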
